A study of Mus musculus with 2 samples.

Results

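The blood-testis barrier is built from cell junctions, and 9 junction genes were read in the testes of mice at PD7, before that barrier forms. They are *Cldn11*, *Cldn3*, *Cldn5*, *Ocln*, *F11r* and *Tjp1* of the tight junction, *Gja1* of the gap junction, and *Cdh1* and *Cdh2* of the adherens junction. The list was set by gene name out of the 32285 genes of the count tables, and all 9 had at least 50 UMIs in each library. None of them was among the genes used to cluster the cells. The list divided by cell class. Transcripts of 6 members, *Cldn11*, *Ocln*, *F11r*, *Tjp1*, *Gja1* and *Cdh2*, were present in Sertoli-like cells of both libraries. Among the named classes, *Cldn3* and *Cdh1* were highest in germ-like cells, and *Cldn5* was found almost entirely in endothelial-like cells.

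Sertoli cells line the seminiferous tubule and later seal it with junctions placed between neighbouring cells near the basement membrane. Tight junctions close the space between cells with claudins and occludin, which span the membrane, and zonula occludens scaffolds tie these to actin. Gap junctions are channels of connexins that pass small molecules between cells, and adherens junctions hold cells together through cadherins, which bind catenins inside the cell. In the mouse the barrier becomes tight as the first germ cells enter meiosis, after the age studied here, and claudin 11 is needed for it. Levels of RNA do not show whether a protein has been placed in a junction.

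The study took testes from 1 control mouse and 1 *Brca1* vKO mouse and made 1 droplet library from each. The *Brca1* vKO mouse carries a floxed and a deleted *Brca1* allele and the *Vasa-Cre* transgene (*Brca1* f/- *Vasa-Cre*). This Cre is active in germ cells from the gonocyte stage on, so that its somatic cells keep the floxed allele beside the deleted one. The labels call the other mouse a control and do not give its alleles. Testes were dissociated with collagenase IV and TrypLE, enzymes that act on the matrix and on proteins of the cell surface, so that all values below are RNA in separated cells.

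Counts are of unique molecular identifiers (UMIs), 1 for each captured RNA molecule. The control library held 5812 barcodes and 120568700 UMIs and the *Brca1* vKO library, called the vKO library from here on, 9456 barcodes and 165062097 UMIs, and 5077 and 8712 cells with medians of 16917 and 12970.5 UMIs remained after filtering. The libraries shared 21 barcodes, 16 of them among the retained cells. Scrublet marked 2.95% and 3.03% of the retained cells as likely doublets, which were kept. Clusters were named anew from markers, and where values differ from those of the study, these rebuilt names may be the source. The Sertoli-like class held 2030 control and 4161 *Brca1* vKO cells, the germ-like class 661 and 221, the stromal-like class 854 and 1984, the myoid-like class 558 and 1414, and the endothelial-like class 27 and 36. Leydig-like, pericyte-like and neutrophil-like cells made up the other 3 classes, with 47 to 141 cells each per library. The neutrophil-like cluster also scored high for macrophage markers. *Sox9*, *Amhr2*, *Rhox8* and *Clu*, which mark Sertoli cells, summed to 4378 and 4285 CPM in the Sertoli-like class, and *Ddx4*, *Dazl*, *Sycp1* and *Zbtb16*, which mark germ cells, to 2312 and 2034 CPM in the germ-like class. UMIs were summed over the cells of a class and given per 1000000 UMIs of that sum (CPM), with exact 95% Poisson intervals. With 1 mouse per genotype, no test between genotypes was possible, and all intervals cover counting error only.

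The claudin genes are shown first by sequence, since these 3 members of a single family led in 3 different classes. Each line gives the 250 bases that lie before the start of the gene (RefSeq, GRCm38.p6, plus strand), and capitals mark matches to 2 promoter motifs. *Cldn11* lies on chromosome 3 from 31149920 to 31164324, with its window at chr3:31149670-31149919. *Cldn3* lies on chromosome 5 from 134986214 to 134987472, with its window at chr5:134985964-134986213. *Cldn5* lies on chromosome 16 from 18776847 to 18778262, with its window at chr16:18776597-18776846. All are on the plus strand.
Cldn11: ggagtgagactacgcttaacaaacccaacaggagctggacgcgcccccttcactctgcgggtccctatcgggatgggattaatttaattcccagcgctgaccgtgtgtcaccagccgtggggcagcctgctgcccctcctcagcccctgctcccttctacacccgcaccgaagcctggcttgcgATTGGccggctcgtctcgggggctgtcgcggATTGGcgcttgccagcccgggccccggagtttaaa
Cldn3: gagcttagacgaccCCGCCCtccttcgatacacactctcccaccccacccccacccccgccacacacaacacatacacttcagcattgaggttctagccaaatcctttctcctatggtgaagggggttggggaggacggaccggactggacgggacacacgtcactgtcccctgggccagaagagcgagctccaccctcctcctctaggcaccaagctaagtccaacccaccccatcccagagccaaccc
Cldn5: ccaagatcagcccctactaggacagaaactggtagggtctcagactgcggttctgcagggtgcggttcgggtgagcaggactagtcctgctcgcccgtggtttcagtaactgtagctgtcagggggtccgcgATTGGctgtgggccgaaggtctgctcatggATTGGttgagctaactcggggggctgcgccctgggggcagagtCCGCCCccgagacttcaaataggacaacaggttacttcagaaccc
Both strands were searched. The GC box is GGGCGG and reads CCGCCC when it lies on the minus strand, and the CCAAT box of 5 bases reads ATTGG there. Neither motif contains the other. The *Cldn11* window held 0 GC boxes and 2 CCAAT boxes, that of *Cldn3* held 1 and 0, and that of *Cldn5* held 1 and 2. Of all 32851 windows of this length, 32.7% held a GC box and 33.8% a CCAAT box. These are matches of letters and not measured binding sites.

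Among the claudins, *Cldn11* was the Sertoli gene. It had 8614 UMIs or 159 CPM (155 to 162) in Sertoli-like cells of the control library and 13706 UMIs or 135 CPM (132 to 137) in those of the vKO library. The next class was Leydig-like in the control, at 13.8 CPM (7.71 to 22.7), and endothelial-like in the *Brca1* vKO, at 12.8 CPM (7.29 to 20.7). The Sertoli level was thus 11.5 (6.97 to 20.6) and 10.6 (6.50 to 18.5) times the next. Germ-like cells had 10.2 and 7.53 CPM, myoid-like cells 2.71 and 6.83, and stromal-like cells 2.59 and 4.52. Below the Sertoli-like class, neighbouring classes did not differ beyond their intervals from the Leydig-like to the endothelial-like class in the control. Of all *Cldn11* UMIs in retained cells, 90.2% and 93.8% came from Sertoli-like cells.

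*Cldn5*, the claudin of vascular endothelium, had 523 UMIs or 592 CPM (543 to 645) in the 27 endothelial-like control cells and 976 UMIs or 778 CPM (730 to 828) in the 36 *Brca1* vKO cells. In the other 7 classes it was at or below 0.608 CPM. Sertoli-like cells had 8 UMIs in the control and 22 in the vKO library, or 0.147 and 0.216 CPM. Leydig-like, pericyte-like and neutrophil-like cells had 0 UMIs in both libraries. A count of 0 allows up to 2.76 CPM (3 counts) in the 47 control Leydig-like cells. The same limit is 3.51 CPM in control neutrophil-like and 5.72 CPM in control pericyte-like cells. Endothelial-like cells thus held 95.3% and 95.9% of all *Cldn5* UMIs.

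*Cldn3*, which Sertoli cells of older mice place in newly formed tight junctions, was close to absent from Sertoli-like cells at PD7. These had 7 UMIs in the control and 24 in the vKO library, or 0.129 CPM (0.0518 to 0.265) and 0.236 CPM (0.151 to 0.351). Among the named classes, the highest level was in germ-like cells. These had 262 UMIs or 8.05 CPM (7.10 to 9.08) in the control and 27 UMIs or 3.03 CPM (2.0 to 4.41) in the vKO library. An unnamed cluster of 18 control and 8 *Brca1* vKO cells was higher, at 88.3 and 115 CPM. The ratio of the germ-like to the next class was 4.32 (2.29 to 8.33) in the vKO library. In the control the next class, Leydig-like cells, held 1 UMI, and the ratio of 8.76 had an interval of 1.56 to 347. Endothelial-like, pericyte-like and neutrophil-like cells had 0 *Cldn3* UMIs in both libraries. A count of 0 allows up to 5.72 CPM (3 counts) in control and 4.70 CPM in *Brca1* vKO pericyte-like cells. In endothelial-like cells of the vKO library it allows up to 2.39 CPM. In that library, germ-like cells can therefore not be placed above pericyte-like cells, and the endothelial-like limit lies within the germ-like interval.

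*Ocln* encodes occludin, a membrane protein of tight junctions. Its level was 72.9 CPM (70.6 to 75.2) in control and 84.1 CPM (82.3 to 85.9) in *Brca1* vKO Sertoli-like cells, followed by germ-like cells at 33.8 CPM (31.8 to 35.8) and 28.3 CPM (24.9 to 32.0). The ratio between these classes was 2.16 (2.02 to 2.31) in the control and 2.97 (2.62 to 3.38) in the vKO library. Stromal-like cells had 0.770 and 1.75 CPM and myoid-like cells 1.55 and 2.03 CPM. *Ocln* was thus found in both cell types of the tubule, and its level in stromal-like and myoid-like cells was near 0.

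*F11r* encodes the junctional adhesion molecule JAM-A, an immunoglobulin-like protein of epithelial and endothelial tight junctions. Sertoli-like cells had 203 CPM (199 to 207) and 206 CPM (203 to 209), and endothelial-like cells 145 CPM (121 to 172) and 172 CPM (150 to 197). The Sertoli-like level was 1.40 times (1.18 to 1.68) and 1.20 times (1.05 to 1.37) the endothelial-like one, under the 2-fold limit used for calls. Germ-like cells followed with 50.2 and 54.4 CPM, stromal-like cells had 16.5 and 12.7 CPM, and myoid-like cells were lowest, with 4.26 and 5.07 CPM.

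The scaffold gene *Tjp1*, which encodes ZO-1, was the most widespread member. Endothelial-like cells had 411 CPM (370 to 456) in the control, ahead of germ-like cells at 320 CPM (314 to 326) and Sertoli-like cells at 230 CPM (226 to 234). In the vKO library endothelial-like and germ-like cells, at 404 and 398 CPM, did not differ beyond their intervals, and Sertoli-like cells had 213 CPM. The other classes ranged from 16.4 CPM in neutrophil-like cells to 99.1 CPM in pericyte-like cells of the control library. With stromal-like cells at 50.7 and 44.7 CPM and myoid-like cells at 53.9 and 52.6 CPM, *Tjp1* had UMIs in every class. In control neutrophil-like cells its 7.10% (3.88 to 11.9) of the Sertoli-like level overlapped the 1.87% to 4.75% of the Sertoli markers *Sox9*, *Amhr2*, *Rhox8* and *Clu*. In neutrophil-like cells of the vKO library its 16.4% (12.5 to 21.1) lay above their 6.64% to 11.8%. In Leydig-like cells its 18.3% and 15.7% lay within the markers' range. That range reached 38.7% and 25.1% with *Clu*, while *Rhox8* stood at 6.79% and 3.45%. Whether *Tjp1* is expressed in these classes was not tested. The order of endothelial-like over germ-like cells in the control turned with classes taken from marker scores, at a log2 ratio of -0.02 in place of 0.36, and in the vKO library the same ratio was -0.35 in place of 0.02.

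*Gja1* encodes connexin 43, the main gap junction protein between Sertoli cells. In the Sertoli-like class it had 24474 UMIs or 450 CPM (445 to 456) in the control and 55636 UMIs or 547 CPM (542 to 551) in the vKO library, where 90.3% and 93.6% of its UMIs lay. Endothelial-like cells had 219 and 222 CPM and Leydig-like cells 206 and 161 CPM, and in the control these 2 classes did not differ beyond their intervals. Germ-like cells had 21.3 and 25.6 CPM, stromal-like cells 15.0 and 19.2 CPM, and myoid-like cells 13.5 and 22.0 CPM. The undifferentiated germ cells described below had only 4.49 and 8.25 CPM.

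The cadherins divided between the tubular cell types. *Cdh2*, N-cadherin, was highest in Sertoli-like cells, with 151 CPM (148 to 154) in the control and 148 CPM (146 to 150) in the vKO library, ahead of pericyte-like cells at 87.7 and 67.3 CPM. Germ-like cells had 41.4 and 59.1 CPM, endothelial-like cells 51.0 and 35.9 CPM, and stromal-like and myoid-like cells 8.23 to 9.46 CPM. *Cdh1*, E-cadherin, which marks undifferentiated spermatogonia, was the reverse among the named classes. It had 607 UMIs or 18.6 CPM (17.2 to 20.2) in control and 234 UMIs or 26.3 CPM (23.0 to 29.9) in *Brca1* vKO germ-like cells, against 17 and 16 UMIs in all Sertoli-like cells, or 0.313 and 0.157 CPM. *Cdh1* had 0 UMIs in Leydig-like and pericyte-like cells of both libraries. With the mean over cells in place of the pooled sum, the germ-like level of *Cdh1* in the control was no longer above the next class, at a log2 ratio of -0.013.

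**Figure D1:**
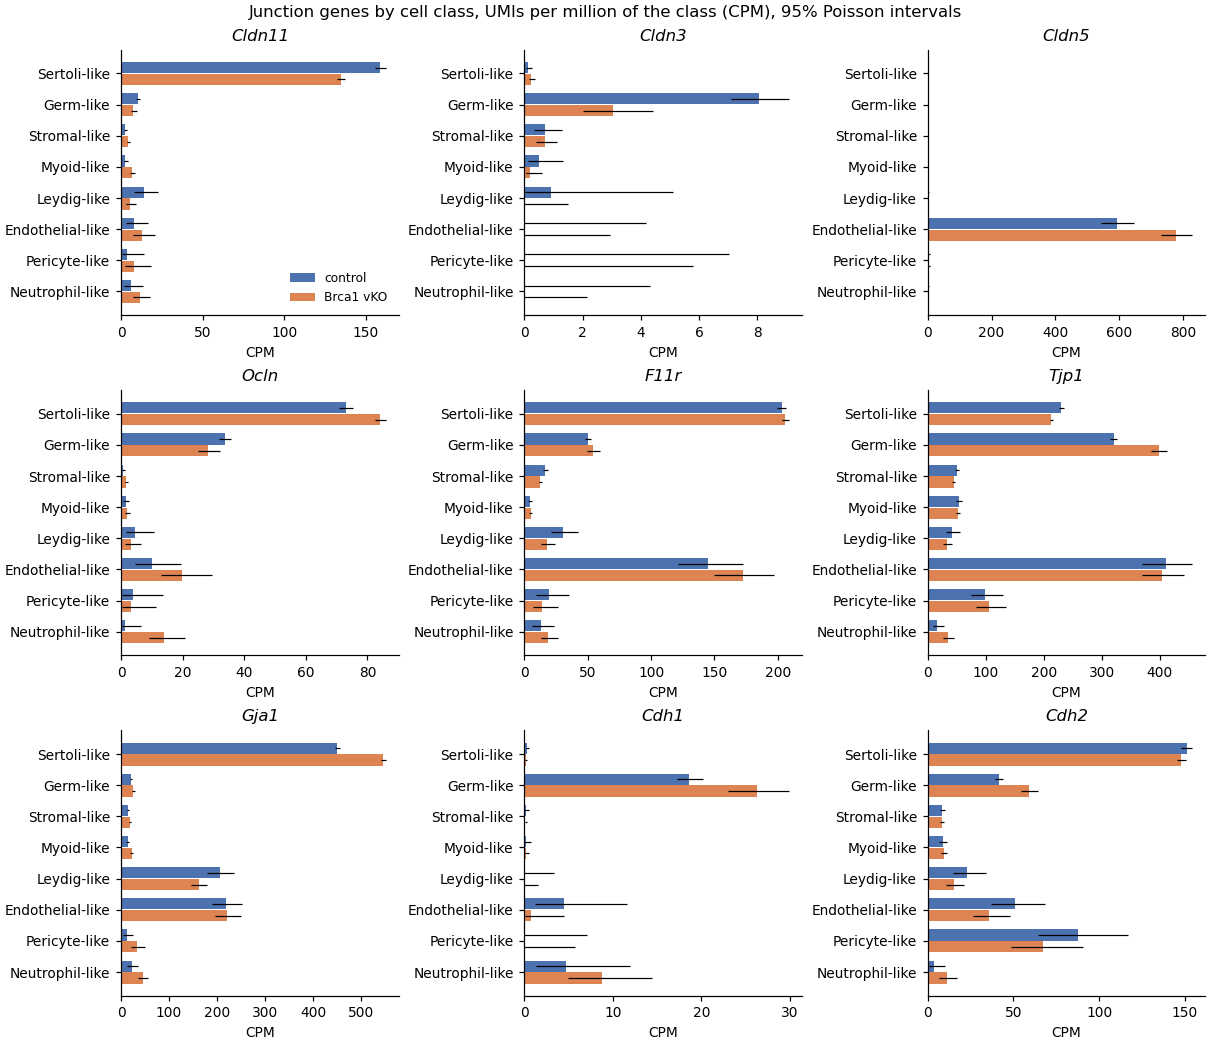
Counts per 1000000 UMIs of each class (CPM, horizontal axes) for the 9 junction genes in 8 cell classes, with 1 bar for the control and 1 for the Brca1 vKO library and exact 95% Poisson intervals. Cldn11 stands out in Sertoli-like cells at 159 and 135 CPM, Cldn5 in endothelial-like cells at 592 and 778 CPM and Cdh1 in germ-like cells at 18.6 and 26.3 CPM, whereas Tjp1 has UMIs in every class.

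Read as calls, 6 of the 9 members in the control and 7 in the vKO library were at least 2-fold higher in a single class than in any other named class, on the log2 scale of CPM + 1. Of all genes with at least 50 UMIs, 28.1% and 26.3% passed the same limit. In the control these members were *Cldn11*, *Ocln* and *Gja1* in Sertoli-like, *Cldn3* and *Cdh1* in germ-like and *Cldn5* in endothelial-like cells, and in the vKO library *Cdh2* joined the Sertoli-like group. *F11r* and *Tjp1* did not pass in either. The call of *Cldn3* in the vKO library takes classes of 0 UMIs as 0, although up to 4.70 CPM was possible in pericyte-like cells, beside 3.03 CPM in germ-like cells. With a pseudocount of 10 CPM in place of 1, 3 members passed in the control, and *Cldn3*, *Ocln* and *Cdh1* did not (log2 ratios of 0.73, 0.92 and 0.96). In the vKO library 5 passed, without *Cldn3* (0.28) and *Cdh1* (0.95). With 1 CPM, the median log2 ratio of the leading over the next class was 1.09 and 1.30 for the members, beside 0.51 and 0.47 for all genes tested.

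Sums over cells do not show how many cells carry a transcript, so each cell was thinned to 2000 UMIs and cells with fewer were left out (21 control and 5 *Brca1* vKO Sertoli-like cells). In Sertoli-like cells *Gja1* was then found in 57.0% (54.8 to 59.2) and 65.2% (63.7 to 66.6) of cells, *F11r* in 33.4% and 34.4%, *Tjp1* in 31.2% and 27.9%, *Cldn11* in 26.5% and 23.0%, *Cdh2* in 22.2% and 20.8%, and *Ocln* in 13% and 13.5% (exact binomial intervals). These are the 6 members found in over 10% of Sertoli-like cells. *Cdh1* was in 0 of 2009 control and 0 of 4156 *Brca1* vKO cells, and *Cldn3* in 0 and 1 of the same cells. A count of 0 allows up to 3 cells, or 0.149% and 0.0722%, with a *Cdh1* UMI at this thinned depth. Without thinning, 0.542% and 0.336% of Sertoli-like cells had a *Cdh1* UMI. Thinned germ-like cells had *Cdh1* in 3.18% and 4.09% and *Cldn3* in 0.908% and 0.909% of cells, the latter on 6 and 2 cells. Unthinned, the germ-like shares were 38.4% and 51.1% for *Cdh1* and 26.2% and 10.4% for *Cldn3*. In stromal-like cells, which should lack *Cldn11* and *Ocln*, the thinned shares were 0.471% and 0.706% for *Cldn11* and 0% and 0.303% for *Ocln*. Without thinning, 87.5% and 83.0% of Sertoli-like cells had a *Cldn11* UMI, at median depths of 18675 and 15614 UMIs, against 4.10% and 5.39% of stromal-like cells at 16203.5 and 12150 UMIs.

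Thinned Sertoli-like cells averaged 1.83 members per control cell and 1.85 members per *Brca1* vKO cell. None of the 9 was seen in 11.1% and 8.42% of these cells, and 3 or more were seen together in 26.5% and 25.4%. Germ-like cells averaged 0.770 and 0.80 members and stromal-like cells 0.166 and 0.170. In endothelial-like cells the members in over 10% of cells were *Cldn5*, *F11r*, *Tjp1* and *Gja1*, with *Cldn5* in 76.0% (54.9 to 90.6) of 25 control and 64.7% (46.5 to 80.3) of 34 *Brca1* vKO cells. The endothelial-like junction set thus differed from that of Sertoli-like cells in its claudin. *Ocln* was lower, at 10.2 and 19.9 CPM, and so was *Cdh2*, at 51.0 and 35.9 CPM. *Gja1* was also lower, at 219 and 222 CPM against 450 and 547, and *Tjp1* was higher, at 411 and 404 CPM against 230 and 213. The control value of *Ocln* rested on 9 UMIs. Its 14.0% (6.39 to 26.6) of the Sertoli-like level overlapped the 4.60% to 7.20% of the Sertoli markers there.

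Droplets also take up free RNA, so the levels of the 5 members led by Sertoli-like cells and of *Tjp1* in other classes were set beside those of the 4 Sertoli markers *Sox9*, *Amhr2*, *Rhox8* and *Clu* there. In undifferentiated spermatogonia of the control library these markers stood at 0.953% to 1.24% of their Sertoli-like level. *Gja1* stood at 0.996% (0.797 to 1.23), within that range, and is read as background. *Cldn11*, at 2.01% (1.53 to 2.58), was above it on 61 UMIs, but in the vKO library its 3.01% (2.0 to 4.35) overlapped the range of 2.09% to 2.94%, while *Gja1*, at 1.51%, lay below. *Ocln* at 61.1% and 33.0%, *F11r* at 27.6% and 23.9%, *Cdh2* at 17.3% and 39.4% and *Tjp1* at 179% and 194% lay above the markers in both libraries. Germ cells at PD7 thus held transcripts of occludin, JAM-A, ZO-1 and N-cadherin above the background, and connexin 43 within or below it.

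In stromal-like cells the markers ranged from 1.37% to 9.76% in the control and from 2.63% to 12.7% in the vKO library, with *Sox9* highest. *Cldn11* at 1.63% and 3.36%, *Gja1* at 3.32% and 3.51%, *Cdh2* at 5.52% and 5.56% and *F11r* at 8.14% and 6.16% were within this range, and *Ocln*, at 1.06% and 2.09%, did not exceed it. *Tjp1*, at 22.0% and 21.0%, was above all 4 markers in both libraries. Without *Sox9* the markers ended at 1.97% and 3.25%, and *F11r* and *Cdh2* lay above these in both libraries. In the control *Gja1*, at 3.32% (2.89 to 3.80), did so as well, while the interval of *Cldn11* overlapped this range. In the vKO library the intervals of *Gja1* and *Cldn11* both overlapped it. In myoid-like cells, beside markers of 1.28% to 11.5% and 2.37% to 17.1%, *Tjp1* stood at 23.4% and 24.7%, *Cdh2* at 5.72% and 6.40%, *Gja1* at 3.01% and 4.03%, *F11r* at 2.10% and 2.46% and *Ocln* at 2.12% and 2.41%. Without *Sox9* the markers in myoid-like cells ended at 1.78% and 2.69%. *Cdh2* and *Gja1* lay above these in both libraries, and *Cldn11*, at 5.07%, in the vKO library. Of the 6 genes compared here, *Tjp1* was the member above all 4 Sertoli markers in both of these classes and both libraries.

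**Figure D2:**
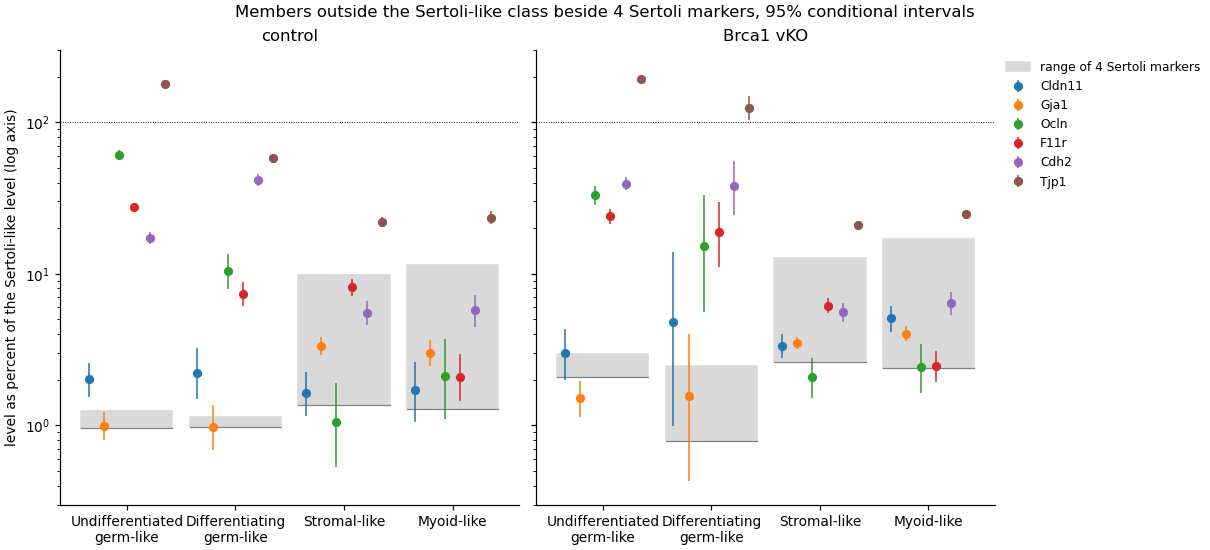
Level of 6 junction genes in other cell classes as percent of their level in Sertoli-like cells (vertical log axis, 95% conditional intervals), with the control library at left and the Brca1 vKO library at right; the grey bands give the range of 4 Sertoli markers in the same class. In undifferentiated spermatogonia Tjp1 stands at 179% and 194% and Ocln at 61.1% and 33.0%, far above the bands, while Gja1 lies in or below them.

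Within the germ cells, junction transcripts differed by stage. The germ-like class together with a cluster of few UMIs per cell that scored highest for germ markers was clustered again, and 2 of its 5 sub-clusters were named. The undifferentiated one (414 control and 184 *Brca1* vKO cells) had *Gfra1* and *Ret* among its leading genes, and the differentiating one (161 and 10 cells) had *Kit* and *Stra8*. In the control library *Tjp1* had 412 CPM (403 to 421) in undifferentiated and 134 CPM in differentiating cells, a ratio of 0.325 (0.304 to 0.346). *Ocln* had 44.5 and 7.58 CPM, a ratio of 0.170 (0.129 to 0.221), and *F11r* 56.0 and 15.0 CPM, a ratio of 0.268 (0.220 to 0.325). *Cdh1* had 26.1 and 5.68 CPM, a ratio of 0.217 (0.156 to 0.295), and *Cldn3* 10.5 and 3.28 CPM, a ratio of 0.311 (0.199 to 0.470). The cadherins went opposite ways, since *Cdh2* had 26.1 and 63.1 CPM, a ratio of 2.42 (2.13 to 2.74).

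Of the 8 members with at least 50 UMIs in these cells, 5 were thus at least 2-fold lower and 1 higher in differentiating cells, where 14.3% of all genes passed this limit. The members' median log2 ratio was -1.52, beside 0.03 for all genes. *Cldn11* (3.18 and 3.54 CPM) and *Gja1* (4.49 and 4.42 CPM) did not differ beyond their intervals. The Sertoli markers stood at 0.976% to 1.14% of the Sertoli-like level in the differentiating cells, close to their level in the undifferentiated ones, and the median depths were 43878.5 and 48128 UMIs. In the vKO library the 10 differentiating cells had 266 CPM of *Tjp1* against 413 in the undifferentiated ones, a ratio of 0.643 (0.533 to 0.770). *Cdh1* had 8.57 against 29.8 CPM, a ratio of 0.288 (0.0780 to 0.748), on 4 UMIs in the differentiating cells. *Cldn3* had 0 UMIs there, which allows up to 6.43 CPM, above its 2.89 CPM in the undifferentiated cells. For *Ocln*, *F11r* and *Cdh2* the interval in these cells included 1.

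**Figure D3:**
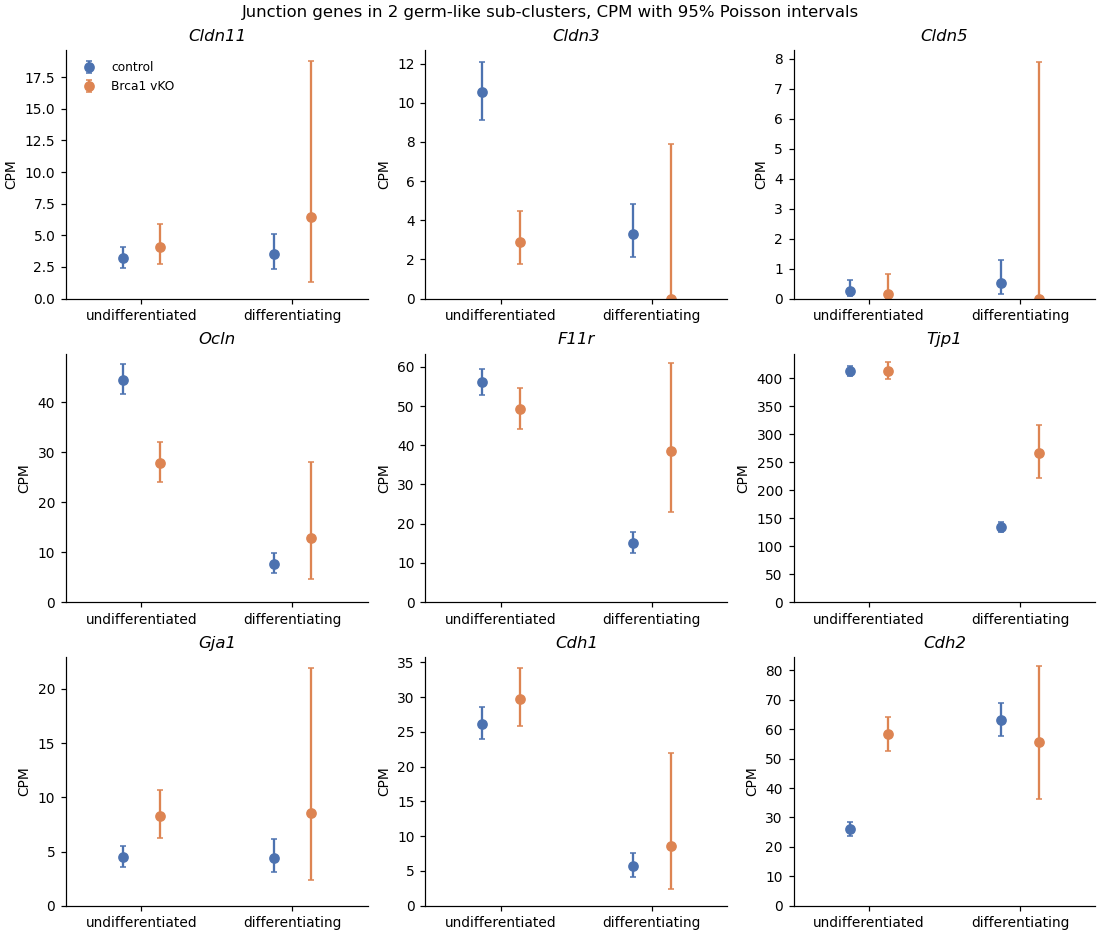
CPM (vertical axes, 95% Poisson intervals) of junction genes in undifferentiated and differentiating spermatogonia, with points for the control and the Brca1 vKO library. In the control, Tjp1 is at 412 and 134, Ocln at 44.5 and 7.58 and Cdh2 at 26.1 and 63.1 CPM in the 2 stages; the Brca1 vKO points of the differentiating stage rest on 10 cells.

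A further germ sub-cluster of 69 control and 11 *Brca1* vKO cells carried Sertoli markers at 45.0% and 36.3% of the Sertoli-like level, and Scrublet marked 47.8% and 90.9% of its cells. Here *Gja1* had 617 and 161 UMIs, or 168 and 213 CPM, and *Cldn11* 73.1 and 43.6 CPM. Most of these cells belong to the germ-like class, which had 692 and 228 *Gja1* UMIs in all. In that class *Cldn11* had 10.2 and 7.53 CPM, compared with 3.18 and 4.05 CPM in the undifferentiated cells alone. Another sub-cluster, of 97 and 18 cells, had *Col1a2*, *Dcn* and *Acta2* among its leading genes, and Scrublet marked 32.0% and 88.9% of it. The part of both in the germ-like levels of the members was not tested.

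Sertoli cells still divide at PD7. Sertoli-like cells of the cluster led by cell cycle genes (510 control and 1153 *Brca1* vKO cells) were set against the others. None of the 6 members with enough UMIs differed by 2-fold in either library, where 4.41% and 2.91% of all genes did. *Cldn11* was at 159 and 158 CPM in the control cells of high and low cell cycle level, a ratio of 1.01 (0.962 to 1.05), and *Ocln* at 71.3 and 73.8 CPM, a ratio of 0.966 (0.904 to 1.03). *Gja1* was lower in the cycling cells, at 412 against 472 CPM in the control and 497 against 581 CPM in the vKO library, with ratios of 0.874 (0.851 to 0.898) and 0.855 (0.841 to 0.870). *Tjp1* was higher there, with ratios of 1.22 (1.18 to 1.26) and 1.25 (1.22 to 1.28), and *Cdh2* had ratios of 1.11 and 1.17. The summed level of the 4 Sertoli markers in the cycling cells was 86.6% and 88.7% of that in all Sertoli-like cells.

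Between the genotypes, the members found in Sertoli-like cells were at close levels. *Brca1* itself, whose counts cover the whole gene and so do not separate the deleted allele, had 72.8 CPM in control and 45.1 CPM in *Brca1* vKO germ-like cells, and 29.96 and 25.91 CPM in Sertoli-like cells. The ratio of *Brca1* vKO to control in Sertoli-like cells was 0.849 (0.827 to 0.873) for *Cldn11*, 0.925 for *Tjp1*, 0.980 for *Cdh2*, 1.01 for *F11r*, 1.15 for *Ocln* and 1.21 (1.19 to 1.23) for *Gja1*. Of these 6, 0 passed the 2-fold limit, which 0.471% of all genes did. The shares of thinned cells moved the same way for *Cldn11* (26.5% and 23.0%) and *Gja1* (57.0% and 65.2%).

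In undifferentiated spermatogonia *Cldn3* was lower in the vKO library, with 20 UMIs or 2.89 CPM (1.77 to 4.47) against 202 UMIs or 10.5 CPM (9.14 to 12.1), a ratio of 0.274 (0.164 to 0.435). *Cdh2* was higher, with 58.3 CPM (52.7 to 64.3) against 26.1 CPM (23.9 to 28.5), a ratio of 2.23 (1.95 to 2.55). These 2 of 8 members passed the 2-fold limit, which 7.63% of all genes did. The other cadherin, *Cdh1*, had 29.8 and 26.1 CPM, a ratio of 1.14 (0.964 to 1.34), and *Tjp1* 413 and 412 CPM, a ratio of 1.003. *Ocln* had 27.8 and 44.5 CPM, a ratio of 0.624 (0.531 to 0.730), and *Gja1* 8.25 and 4.49 CPM, a ratio of 1.84 (1.29 to 2.60). The Sertoli markers were also higher in these *Brca1* vKO cells, at 2.09% to 2.94% against 0.953% to 1.24% of the Sertoli-like level, and their part in the values of *Gja1* and *Cdh2* was not tested. With a pseudocount of 10 CPM neither call held, at log2 ratios of -0.67 for *Cldn3* and 0.92 for *Cdh2*.

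Over the whole germ-like class, *Cldn3* alone passed the limit, at a ratio of 0.377 (0.244 to 0.561), where 6.47% of all genes did. The ratio was 1.43 for *Cdh2*, 1.41 for *Cdh1* and 1.24 for *Tjp1*, against 2.23, 1.14 and 1.003 in the undifferentiated cells alone. The make-up of the class differed between the libraries, as the 161 and 10 differentiating cells show, and its part in these ratios was not tested. In myoid-like cells *Cldn11* passed it, with 21 control and 101 *Brca1* vKO UMIs, a ratio of 2.52 (1.56 to 4.25), against 0.663% of all genes. This claudin was at 1.71% and 5.07% of its Sertoli-like level in those cells. Of the Sertoli markers there, *Sox9* stood at 11.5% and 17.1%, and the other 3 between 1.28% and 1.78% in the control and between 2.37% and 2.69% in the vKO library. Both calls, of *Cldn3* and of *Cldn11*, were lost with the larger pseudocount, at log2 ratios of -0.47 and 0.40. In stromal-like cells, where 0.482% of genes passed, *Ocln* had 11 and 45 UMIs, a ratio of 2.28 that missed the limit on the log2 scale of CPM + 1. Beside it the Sertoli marker *Clu* stood at 1.37% and 2.63% and *Amhr2* at 1.97% and 3.25% of the Sertoli-like level, and their part was not tested. In endothelial-like cells, where 3.64% of genes passed, *Cldn5* had a ratio of 1.31 (1.18 to 1.46). No member there passed the limit.

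**Figure D4:**
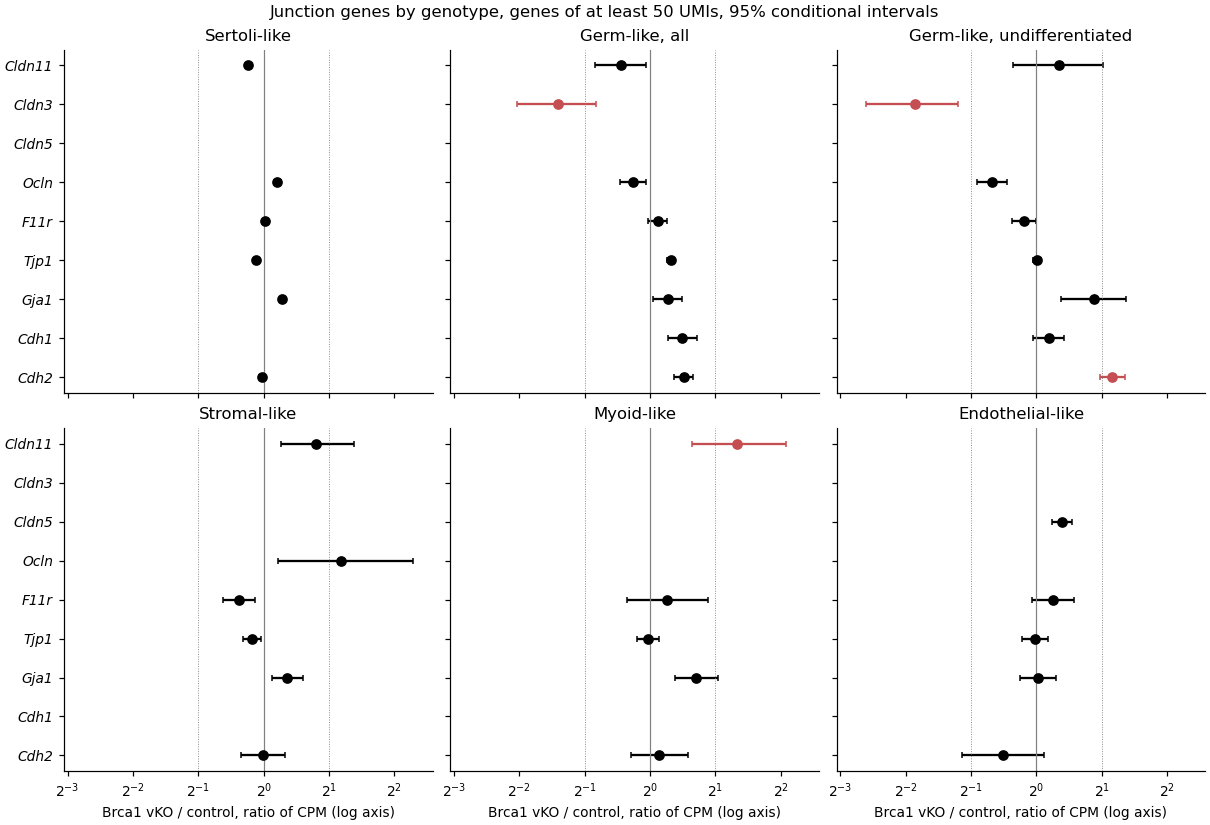
Ratio of CPM, Brca1 vKO over control (horizontal log axis, 95% conditional intervals), for the junction genes with at least 50 UMIs in each class. The Sertoli-like points lie between 0.849 for Cldn11 and 1.21 for Gja1, and in undifferentiated germ cells Cldn3 lies at 0.274 and Cdh2 at 2.23.

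A wider list of 117 junction genes, of which 115 were in the tables, places the members among their partners. Of the genes with enough UMIs, 30 of 78 control and 33 of 74 *Brca1* vKO values were at least 2-fold higher in a single class, beside the 28.1% and 26.3% of all genes. Genes were then ranked by the plain ratio of CPM, with at least 50 UMIs in the leading class of the control. The share of all genes by this ratio was not counted for any class, so the numbers of genes per class have no background. By this ratio, 11 genes were at least 2-fold highest in Sertoli-like cells of both libraries. The leading 5 were *Ctnna2*, an alpha catenin (1289 and 1276 CPM), *Ildr2*, an angulin of tricellular junctions (92.6 and 41.2 CPM), *Dsp*, the desmosomal desmoplakin (31.3 and 45.0 CPM), *Cgn*, the tight junction protein cingulin (94.0 and 85.5 CPM), and *Lsr*, another angulin (228 and 230 CPM).

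In germ-like cells, 8 genes were at least 2-fold highest by the plain ratio of CPM, led by *Ctnnd2*, a catenin (134 and 99.5 CPM), *Panx2*, a pannexin (2.30 and 2.81 CPM), *Cdh15*, M-cadherin (17.9 and 19.3 CPM), *Crb3*, a polarity protein (4.09 and 6.18 CPM), and *Marveld2*, which encodes the occludin relative tricellulin (26.6 and 30.7 CPM). On the log2 scale of CPM + 1 with at least 50 UMIs, 7 genes of the wider list were called there in each library. *Panx2* rested on 25 UMIs in the vKO library. Endothelial-like cells led for 6, among them *Cdh5*, VE-cadherin (915 and 756 CPM), *Magi1* (987 and 999 CPM), *Pkp4* (266 and 219 CPM), *Esam*, an endothelial adhesion molecule (507 and 540 CPM), and *Itga6*, a laminin receptor chain (524 and 403 CPM). Pericyte-like cells led for the connexin genes *Gjc1* (679 and 620 CPM) and *Gja4* (271 and 221 CPM), and myoid-like cells for *Cdh11* (496 and 436 CPM).

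Other parts of the junctions were not detectable or low at this depth. Among all 32285 genes, 17359 in the control and 17264 in the vKO library had at least 50 UMIs in the named classes. Of the 23 other claudin genes on the list, 16 had fewer than 50 UMIs in the named classes of each library, and 4 of these were at 0. The list also held 22 other genes of gap junction and related channels, the pannexin gene *Panx2* among them. Of these, 8 in the control and 6 in the vKO library had at least 50 UMIs, compared with 10 and 9 of 11 other cadherins and 4 of 7 desmosome genes in both. *Cldn12* was at 14.6 and 14.4 CPM in Sertoli-like and 18.5 and 13.4 CPM in germ-like cells, and *Cldn7* at 1.93 and 3.51 CPM in Sertoli-like cells. *Cldn1* was highest in Leydig-like cells, at 52.4 and 67.7 CPM. Levels of different genes are not set against each other here, since the counts are not scaled by length.

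By genotype, *Ildr2* was the only gene of 69 in Sertoli-like cells past 2-fold, beside 0.471% of all genes, with 92.6 CPM in the control and 41.2 CPM in the vKO library, a ratio of 0.445 (0.427 to 0.463). In germ-like cells 8 of 72 passed, beside 6.47% of all genes. The higher ones included *Igsf5* (ratio 3.14) and *Cdh3*, P-cadherin (2.96), and the lower ones were *Gja3*, a connexin (0.165), *Amotl1* (0.355) and *Ildr2* (0.386). The stages that make up the germ-like class differed between the libraries, and their part in these ratios was not tested. *Ildr2*, which was also lower in Sertoli-like cells, had 10.8 and 4.16 CPM in germ-like cells. The Sertoli markers stood there at 4.58% to 5.55% of the Sertoli-like level in the control and 4.90% to 6.68% in the vKO library. The part of Sertoli RNA in the germ-like ratio of *Ildr2* was not tested. *Cdh3* had 52.2 against 16.1 CPM in the undifferentiated cells, a ratio of 3.25 (2.78 to 3.79), beside the higher *Cdh2*. In stromal-like cells *Itga6*, at a ratio of 2.84 (1.94 to 4.26), was the only one of 55, beside 0.482% of all genes. In endothelial-like cells 2 of 41 passed, beside 3.64% of all genes. *Eps8*, which encodes an actin-binding protein, was higher, with 8 and 57 UMIs and a ratio of 5.01 (2.38 to 12.2), and *Cdh13*, a cadherin, was lower, with 87.2 and 31.9 CPM and a ratio of 0.366 (0.243 to 0.542).

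**Figure D5:**
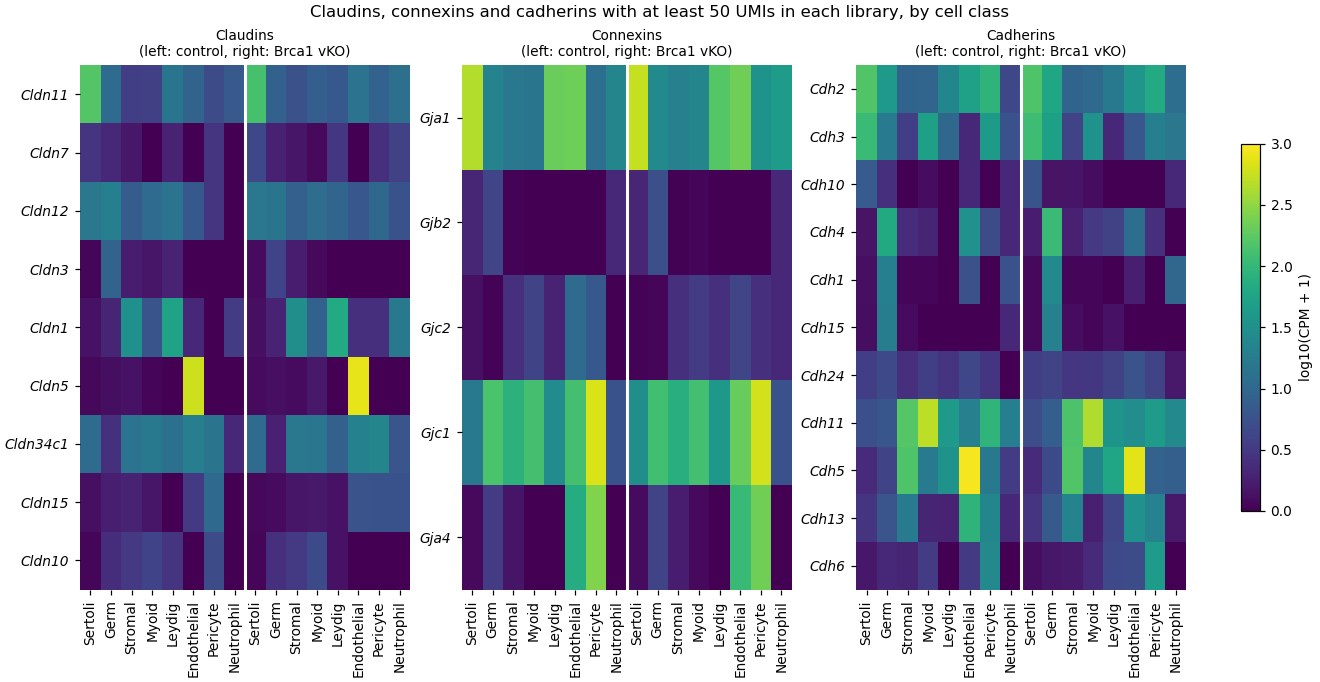
Level as log10(CPM + 1), shown by colour, of claudin, connexin and cadherin genes with at least 50 UMIs in each library, in 8 cell classes of the control (left) and the Brca1 vKO library (right). In the Sertoli-like columns Cldn11, Gja1 and Cdh2 appear at 159, 450 and 151 CPM in the control, and in the endothelial-like columns Cldn5 appears at 592 CPM.

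For each member the genes with the most similar pattern were taken from 15896 genes by Pearson's correlation over the 16 profiles of 8 classes in 2 libraries. This is a description over summed profiles that share libraries and depths. *Wfdc10* (r = 0.988), *Gstm6* and *Cst12* were most like *Cldn11*, and *Ankrd40* (0.968), *Plac1* and *Mark4* most like *Gja1*. *Myct1* (0.999), *Adgrl4* and *Gm32688* were most like *Cldn5*. *Galnt3* (0.981), *Grhl1* and *Npffr1* were most like *Cdh1*, and *Tcam1* (0.967), *Clic6* and *Rspo4* most like *Cldn3*. The best matches were looser for *Ocln* (*Spire2*, 0.958, *Unc13b* and *Nr6a1*), *F11r* (*Lama3*, 0.93, *Tbc1d30* and *Zfpm1*) and *Cdh2* (*Mapk9*, 0.955, *Gsta3* and *Fign*). *Tjp1* was nearest to *Atp9a* (0.973), *Arhgap29* and *Git1*.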

How the data were processed

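Testicular cells of 1 control and 1 *Brca1* vKO mouse at PD7 were profiled on the 10x Genomics platform. With Cell Ranger 6.0.2 the authors aligned reads to mm10 and counted UMIs, and these deposited counts were not normalized and held only barcodes called as cells. Gene positions come from an annotation of GRCm38, the assembly of mm10, and the RefSeq promoter table used here held entries for 7 of the 9 members.

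Retained cells had at least 750 genes and a mitochondrial share of at most 10%. They were log-normalized, and 2000 variable genes, without any junction gene, and 20 principal components were taken in Seurat 5.3.0 (R 4.3.3). An own version of the Harmony algorithm (theta 2, sigma 0.1, lambda 1) removed differences between libraries from these components. Louvain clustering used a resolution of 0.25, and 0.2 among germ cells. A cluster was named when the mean standardized level of its class's markers was at least 1, at least 3 markers were detected, and its 10 leading genes held no more markers of another class. Clusters of few UMIs with no own marker among these genes stayed unnamed. Scrublet in scanpy 1.11.5 (Python 3.11.15) marked doublets, which were removed only in an alternative.

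UMIs of a class and library were summed and scaled to the total of that sum (CPM). Calls were 2-fold differences of log2(CPM + 1) in genes with at least 50 UMIs. Intervals are exact at 95% (Poisson for sums, binomial for shares, conditional for ratios; scipy 1.17.1) and cover counting error only. No p-value is given, since each genotype had 1 library. Scripts were tested on simulated data with known answers.

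The members, gene lists and rules were chosen with earlier results of these data known. Of the other junction genes, the text names up to 5 per class by the control ratio of that class over the next, among those highest in that class by 2-fold in both libraries, and up to 3 per direction and class by genotype. A gene that this rule selects is not reported here. For each member it names the 3 genes of highest Pearson correlation. *Nectin1* and *Espn*, past 2-fold in germ-like cells, fell outside this rule, and *Cldn12*, *Cldn7*, *Cldn1*, *Eps8* and *Cdh13* were named after their values were seen. The alternatives changed the mitochondrial limit, doublets, class assignment, batch correction, variable genes, resolution, depth of cells, weighting, scaling (TMM factors of edgeR 4.0.16), pseudocount, low-count filter and thinning depth. The kit's chemistry and the counting of intronic reads are not given in the sources used here.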

Additional observations from a re-analysis of the deposited data

Results flagged for a closer look

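For 4 members the ratio of *Brca1* vKO to control lay above 1 in one class and below 1 in another, with intervals that did not include 1. The difference between the classes was itself not tested, since each genotype had 1 library. *Cldn11* had a ratio of 2.52 in myoid-like and 0.738 in germ-like cells. In undifferentiated cells alone it had 3.18 and 4.05 CPM, and in the sub-cluster of 69 and 11 cells with many marked doublets it had 73.1 and 43.6 CPM. In myoid-like cells *Clu* stood at 1.78% and 2.63% and *Amhr2* at 1.28% and 2.37% of the Sertoli-like level. The part of these in the ratios of *Cldn11* was not tested. *Ocln* had a ratio of 2.28 in stromal-like and 0.838 in germ-like cells. In stromal-like cells it was at 1.06% and 2.09% of its Sertoli-like level, beside *Clu* at 1.37% and 2.63% and *Rhox8* at 1.64% and 2.66%, whose part was not tested. *Tjp1* had a ratio of 1.24 in germ-like and 0.882 in stromal-like cells, and *Gja1* 1.63 in myoid-like and 0.785 in Leydig-like cells. In undifferentiated cells alone *Tjp1* had a ratio of 1.003, and the libraries differed in their differentiating cells, with 161 and 10, whose part was not tested.

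Signal was also found in cells that enter none of the comparisons. An unnamed cluster of 18 control and 8 *Brca1* vKO cells, with *Ecrg4*, *Rmst* and *Pax8* among its leading genes, had 88.3 and 115 CPM of *Cldn3* (42 and 35 UMIs) and 210 and 259 CPM of *Cdh1*. In the germ-like class, where these genes were highest among the named classes, *Cldn3* had 8.05 and 3.03 CPM and *Cdh1* 18.6 and 26.3 CPM. The same cluster had 172 and 194 CPM of *F11r* and 135 and 217 CPM of *Cdh2*. Its markers did not name a class.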

How the results depend on the processing

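No paired analysis was possible because each genotype had 1 library. With a pseudocount of 10 CPM in place of 1, members at least 2-fold higher in a single class went from 6 to 3 in the control and from 7 to 5 in the vKO library, those past 2-fold by genotype from 2 to 0 over the 5 classes, and *Cldn3* and *Cdh2* in undifferentiated cells had log2 ratios of -0.67 and 0.92. Over all genes this pseudocount took the genes led by a class from 4876 to 2735 in the control and from 4547 to 2829 in the *Brca1* vKO library, and those past 2-fold by genotype from 73 to 18 in Sertoli-like, 967 to 199 in germ-like, 65 to 8 in stromal-like, 81 to 12 in myoid-like and 241 to 145 in endothelial-like cells. With no minimum of UMIs, 142 myoid-like and 3783 endothelial-like genes passed, and with means over cells 725 endothelial-like genes. Classes from marker scores left 1 member past 2-fold by genotype, with *Cldn11* in myoid-like cells at a log2 ratio of 0.89.

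Means over cells reversed *Cdh1* in the control, with a log2 ratio of germ-like over the next class of -0.013 in place of 1.79, and gave *Cldn5* in endothelial-like cells -0.20 by genotype in place of 0.39. Of 216 comparisons of class ratios with an alternative, 192 stayed as they were, 23 moved and 1 called value reversed, and of 360 by genotype 339 stayed and 21 moved. Ratios near 1 that were not called could also change sign, as *Gja1* in germ-like cells did by genotype, at a log2 ratio of -0.07 without marked doublets. Of 108 shares of cells at another thinning depth or none, 80 moved, as more UMIs per cell make more cells positive. *Ocln* and *Cdh2* in the *Brca1* vKO library lost their 2-fold lead in Sertoli-like cells with classes from marker scores, at log2 ratios of 0.52 and 0.80. In that library *Cldn3* lost its lead in germ-like cells with TMM factors (0.95) and *Cdh1* with means over cells (0.46). Joining the 2 clusters of few UMIs to the Sertoli-like and germ-like classes was added after the data were seen. Small classes limit the depth, with 27 and 36 endothelial-like cells and 10 differentiating *Brca1* vKO cells.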
